A study of Rattus norvegicus with 18 samples.

Results

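The 37 nuclear genes described here encode subunits of the mitochondrial respiratory chain and of ATP synthase, measured in whole rat lung after cigarette smoke. They are all genes whose symbol in the probe annotation begins with Nduf, Sdh (without the Sdhaf assembly factors), Uqcr, Atp5, or Cox followed by a digit from 4 to 8, or is Cyc1 or Cycs, with values in at least 12 of the 18 samples. This rule found 37 of the 4132 named genes with that many values, and each of the 37 had 1 probe and a value in all 18 samples. Complex I (NADH dehydrogenase) had 12 of them, complex II (succinate dehydrogenase) 1, complex III (the cytochrome bc1 complex) 4, cytochrome c 1, complex IV (cytochrome c oxidase) 8 and ATP synthase 11. The rule used names and the number of values, not the size of any change.

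Rats inhaled diluted cigarette smoke through the nose only, at 300 (low dose) or 600 (high dose) µg of total particulate matter per litre, while control rats had conditioned fresh air. Exposure took place 2 times a day for 1 h on 5 days a week and lasted 2, 7 or 13 weeks. Lungs were collected at 3 intervals from the end of the final session (2, 6 or 20 hours), so that each dose covers 9 combinations of exposure length and interval. Each of the 18 samples is a log2 ratio of smoke-exposed over fresh-air lung from pools of RNA of 4 rats, read on 2-colour arrays, with 1 sample per condition. Both doses of a combination were set against 1 shared pool of fresh-air rats, so there were 9 control pools, and the 2 doses' values against air are not independent of each other. Neither strain, sex nor age of the rats is given in the labels used here. The number of arrays limits the precision, and the errors below (standard errors, SE) measure the spread over the combinations, which holds differences between pools and between times together. Smoke-exposed RNA carried Cy5 in every sample and no dye swap is named, so a constant dye effect would add to every value against air but not to a difference between doses or times. A ratio gives no expression level, so the lung's own markers could not be checked as levels here.

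The respiratory chain lies in the inner mitochondrial membrane. Complexes I and II pass electrons from NADH and succinate to ubiquinone, complex III passes them on to the mobile carrier cytochrome c, and complex IV hands them to oxygen. Complexes I, III and IV pump protons as they do so, and ATP synthase uses the proton gradient to make ATP. Most subunits are encoded in the nucleus, a few in mitochondrial DNA. Of the subunits encoded in mitochondrial DNA, 0 were among the genes tested. Several complex IV subunits exist as isoforms that differ between tissues, and those measured here were Cox4i1, Cox6a1, Cox7a2 and Cox8a, the forms found in most tissues.

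At the high dose 3 of the 37 genes rose against fresh air and 0 fell, by ratios between 1.13 and 1.17. Across all 4016 genes tested, 17.2% changed at this dose, 9.56% upward and 7.64% downward (limma, Benjamini-Hochberg adjusted p under 0.05), so the respiratory chain's share of 8.11% lay below the share of all genes. The 3 were Cox5a and Cox5b, complex IV subunits that face the mitochondrial matrix, and Uqcrfs1, the Rieske iron-sulfur protein that carries electrons within complex III. At the low dose 0 of 37 passed the test, against 4.96% of all genes. These are whole lungs, in which a change in the number of cells of a type cannot be told apart from a change in the RNA per cell.

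Cox5b had high-dose log2 ratios of 0.08, 0.08 and 0.14 at 2, 6 and 20 hours after 2 weeks, 0.20, 0.55 and 0.19 after 7 weeks, and 0.36, 0.03 and 0.45 after 13 weeks. All 9 lay above 0, with the highest at 7 weeks and 6 hours and the lowest at 13 weeks and 6 hours. The mean was 0.23 ± 0.060 (SE, n = 9), a ratio of 1.17, with an adjusted p of 0.0176 in limma's test. At the low dose the 9 values in the same order were 0.07, -0.07, 0.10, -0.27, 0.37, 0.26, 0.43, 0.16 and 0.30, with a mean of 0.15 ± 0.070 and a limma adjusted p of 0.259. The low-dose values lay above 0 in 7 of 9 samples, and the exception furthest below was at 7 weeks and 2 hours.

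Cox5a was the most even of the 3. Its high-dose log2 ratios, in the order of hours within 2, 7 and 13 weeks, were 0.26, 0.20, 0.08, 0.21, 0.04, 0.20, 0.19, 0.28 and 0.30. The mean was 0.20 ± 0.045 (SE, n = 9), a ratio of 1.15, with a limma adjusted p of 0.00929. At the low dose they were 0.12, 0.06, 0.07, -0.06, 0.28, 0.14, 0.08, 0.23 and 0.42, above 0 in 8 of 9 samples, with a mean of 0.15 ± 0.056 and a limma adjusted p of 0.151. The values of the 2 doses overlapped over most of their range.

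Uqcrfs1 had high-dose log2 ratios of 0.14, 0.15, 0.25, 0.03, 0.20, 0.21, 0.29, 0.03 and 0.30 in the same order. All 9 lay above 0, with a mean of 0.18 ± 0.047 (SE, n = 9), a ratio of 1.13 and a limma adjusted p of 0.0187. The low-dose values were 0.08, 0.12, 0.15, -0.03, 0.03, 0.29, 0.53, 0.19 and 0.19, with a mean of 0.17 ± 0.060 and a limma adjusted p of 0.119. The mean was thus almost the same at both doses, and the single highest value, 0.53, belonged to the low dose at 13 weeks and 2 hours. Without the combination of 13 weeks and 2 hours the limma adjusted p of Uqcrfs1 at the high dose was 0.0506. With all 18 samples in 1 fit, the control pool as a random block, Uqcrfs1 also passed at the low dose. The share of all genes that passed in that fit is not reported here.

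The calls depended on which combinations were in the fit. When 1 combination was left out at a time, between 2 and 4 of the 37 genes passed at the high dose. The share of all genes was then 12.4% to 16.9%. In 6-sample fits, 0 of the 37 passed without the samples of 7 weeks, of 13 weeks, of 2 hours or of 20 hours. Of all genes, 4.93% to 9.91% passed in those fits. In the fit without the samples of 2 weeks 3 of the 37 passed (Atp5mc1, Cox5a and Cox5b), against 13.6% of all genes. Without those of 6 hours 4 passed (Atp5mc3, Cox5a, Cox5b and Uqcrfs1), against 13.7% of all genes. The mean changes of Cox5a, Cox5b and Uqcrfs1 stayed between 0.14 and 0.30 in all of the alternatives run.

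**Figure D1:**
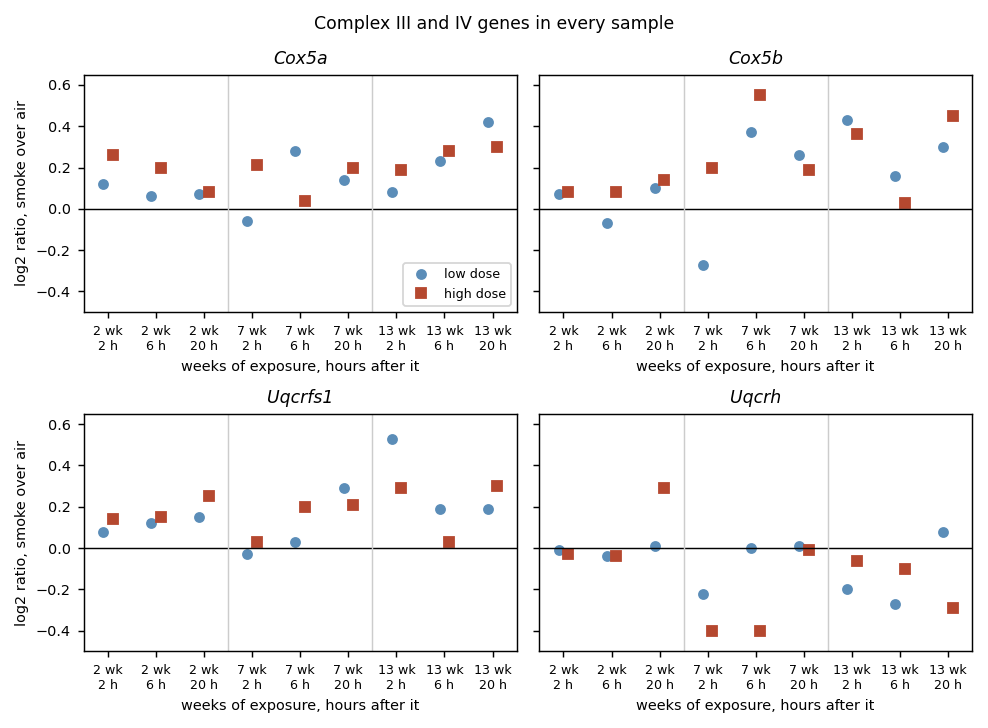
Log2 ratios of smoke over air (vertical axis) of the 3 genes that passed the test at the high dose, and of Uqcrh, the gene with the lowest high-dose mean, in each combination of weeks and hours (horizontal axis); circles are the low dose and squares the high dose, 1 sample each. All 9 squares of Cox5a, Cox5b and Uqcrfs1 lie above 0, while 8 of 9 squares of Uqcrh lie below 0.

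The start regions of these genes are shown because nuclear genes of the respiratory chain are known to share binding motifs for NRF1, the GABP factor of the ETS family, YY1 and the estrogen-related receptors near their starts. RefSeq promoters (assembly GRCr8, 250 bases before to 50 bases after the gene's start, 300 in all) were matched for 34 of the 37 genes. The letters searched on both strands were GCGCATGC for NRF1, CCGGAAG for ETS (GABP), AAGATGGC for YY1 and CAAGGTCA for the estrogen-related receptors (ERR). The first 3 sequences below belong to the genes that passed the test, Cox8a has the most matches of the 34 promoters, 4 in all, to 3 of the 4 motifs, and Atp5mc2 shows a pair of overlapping NRF1 matches. Each is written 5′ to 3′ on the gene's strand, with motif matches on either strand in capitals.
Cox5b: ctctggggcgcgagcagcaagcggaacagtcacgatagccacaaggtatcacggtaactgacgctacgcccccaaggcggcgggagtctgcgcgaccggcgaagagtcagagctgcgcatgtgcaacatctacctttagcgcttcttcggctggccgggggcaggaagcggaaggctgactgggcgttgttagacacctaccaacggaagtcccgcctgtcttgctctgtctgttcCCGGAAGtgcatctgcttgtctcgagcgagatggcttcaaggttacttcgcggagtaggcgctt
Cox5a: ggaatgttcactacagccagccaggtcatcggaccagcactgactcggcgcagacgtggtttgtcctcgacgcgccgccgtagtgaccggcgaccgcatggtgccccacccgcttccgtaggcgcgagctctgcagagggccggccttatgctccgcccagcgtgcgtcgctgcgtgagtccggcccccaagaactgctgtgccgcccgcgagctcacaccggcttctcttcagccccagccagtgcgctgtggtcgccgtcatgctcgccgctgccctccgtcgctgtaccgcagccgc
Uqcrfs1: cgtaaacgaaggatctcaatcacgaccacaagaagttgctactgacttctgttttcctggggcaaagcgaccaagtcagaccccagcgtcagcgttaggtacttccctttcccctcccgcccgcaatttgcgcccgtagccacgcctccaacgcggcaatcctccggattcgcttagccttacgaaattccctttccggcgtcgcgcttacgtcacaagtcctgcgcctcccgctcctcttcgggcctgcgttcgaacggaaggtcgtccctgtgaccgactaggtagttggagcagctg
Cox8a: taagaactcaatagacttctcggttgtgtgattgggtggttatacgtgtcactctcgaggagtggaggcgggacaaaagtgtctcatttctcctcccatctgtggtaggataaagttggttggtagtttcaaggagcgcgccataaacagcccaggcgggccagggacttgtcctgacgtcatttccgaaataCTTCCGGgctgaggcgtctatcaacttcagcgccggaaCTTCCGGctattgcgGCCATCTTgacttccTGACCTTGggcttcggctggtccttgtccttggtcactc
Atp5mc2: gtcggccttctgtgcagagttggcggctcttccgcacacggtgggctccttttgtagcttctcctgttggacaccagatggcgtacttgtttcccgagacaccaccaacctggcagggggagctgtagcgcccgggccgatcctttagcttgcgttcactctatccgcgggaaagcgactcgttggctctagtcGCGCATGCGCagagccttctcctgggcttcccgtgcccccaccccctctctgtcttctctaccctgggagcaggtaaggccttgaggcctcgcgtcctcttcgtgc
The promoters are Cox5b, chr9:46417587-46417886 on the + strand; Cox5a, chr8:66818034-66818333 on the + strand; Uqcrfs1, chr17:34186352-34186651 on the + strand; Cox8a, chr1:213833574-213833873 on the - strand; and Atp5mc2, chr7:135678169-135678468 on the - strand.

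Cox5b holds 1 ETS match that begins 14 bases before the start, while none of these letters is in the windows of Cox5a and Uqcrfs1. Cox8a holds 2 ETS matches that begin 57 and 19 bases before the start, a YY1 match 4 bases before it and an ERR match 11 bases after it, all on the opposite strand. In Atp5mc2 the NRF1 letters occur on the same strand 56 bases and on the opposite strand 54 bases before the start. The matches overlap in 1 stretch that reads the same on both strands, and Atp5po holds the same stretch. Over all 34 promoters the ETS letters were in 13 (38.2%), the YY1 letters in 7 (20.6%), the NRF1 letters in 5 (14.7%) and the ERR letters in 3 (8.82%). The shares among all 27457 RefSeq promoters of this length were 9.22%, 3.44%, 2.66% and 1.48%. Among the 3268 promoters of tested genes they were 13.5%, 4.5%, 4.25% and 0.887%. Any of the 4 was in 21 of 34 (61.8%) against 15.4% of all promoters and 21.0% of the 3268 promoters of tested genes. The median GC content was 58.3% in the 34 and 52.3% in all promoters, and its part in these shares was not tested. A match is a description of the letters and no evidence of binding in these lungs.

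The complexes can be read one by one, from the entry of electrons to the making of ATP. The median of the 37 mean log2 ratios was 0.039 at the high dose and 0.030 at the low dose, against 0.0033 and -0.0022 over all genes tested. Means lay above 0 for 25 of 37 genes at the high dose (67.6%, against 51.2% of all genes) and for 24 at the low dose (64.9%, against 49.0%). The median size of the change, whatever its sign, was 0.060 for the 37 genes and 0.086 for all genes at the high dose. At the low dose it was 0.079 for the 37 genes and 0.070 for all genes. In limma's test 8 of 37 genes had an unadjusted p under 0.05 at the high dose (21.6%, against 31% of all genes). At the low dose 10 of 37 did (27%, against 19.1% of all genes).

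Complex I, the entry point for NADH, had 0 of 12 genes past the test and was split evenly, with 6 means above 0 and 6 below at the high dose. Its median was 0.00056 at the high dose and 0.0022 at the low dose, and the high-dose median took a negative sign, down to -0.0083, when samples, or the upper and lower rows of the table, were centred. The highest high-dose mean was that of Ndufv3, a small subunit of the NADH-binding module, at 0.12 ± 0.061 (SE, n = 9). The lowest was that of Ndufb3, an accessory subunit of the membrane arm, at -0.059 ± 0.063. Ndufs1, which carries iron-sulfur clusters in the peripheral arm, had the lowest low-dose mean of the complex, -0.12 ± 0.058, with 7 of 9 samples below 0 and a limma adjusted p of 0.279. Ndufs7 and Ndufs8, iron-sulfur subunits close to the ubiquinone site, had means of 0.069 and 0.047 at the high dose and 0.13 and 0.099 at the low dose.

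Complex II was represented by Sdha alone, the flavoprotein that oxidises succinate and also serves the tricarboxylic acid (TCA) cycle. Its high-dose log2 ratios were 0.25, 0.23, 0.04, 0.00, 0.10, 0.08, 0.12, -0.03 and 0.21 in the order of hours within 2, 7 and 13 weeks. The mean was 0.11 ± 0.047 (SE, n = 9; limma adjusted p 0.123). The low-dose mean was 0.16 ± 0.076 and held the highest single value of Sdha, 0.70 at 13 weeks and 2 hours.

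Complex III showed its members furthest apart at the high dose, from -0.12 to 0.18, while at the low dose those of ATP synthase were (-0.13 to 0.16, against -0.071 to 0.19 in complex III). Uqcrc1 and Uqcrc2, the core proteins on the matrix side, had high-dose means of 0.10 ± 0.060 and 0.11 ± 0.048, next to the 0.18 of Uqcrfs1. Uqcrh, the hinge protein at the cytochrome c1 side, had the lowest high-dose mean of all 37 genes, -0.12 ± 0.068 (SE, n = 9; limma adjusted p 0.268). Its high-dose values were -0.03, -0.04, 0.29, -0.40, -0.40, -0.01, -0.06, -0.10 and -0.29, below 0 in 8 of 9 samples, and its low-dose mean was -0.071 ± 0.053. Uqcrc1 had the highest low-dose mean of the 37 genes, 0.19 ± 0.076, of which the sample at 13 weeks and 2 hours, at 0.77, was the highest value of any of the 37 genes in any sample.

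Cycs, cytochrome c itself, lay at 0.0044 ± 0.062 at the high dose and -0.013 ± 0.056 at the low dose. Its high-dose values ran from -0.20 to 0.44.

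Complex IV had 7 of 8 means above 0 at both doses, with medians of 0.072 and 0.12. After Cox5b and Cox5a came Cox4i1, the regulatory subunit IV isoform 1, at 0.12 ± 0.052, above 0 in 7 of 9 high-dose samples (limma adjusted p 0.138). The other tissue isoforms had high-dose means of 0.073 ± 0.052 (Cox7a2), 0.071 ± 0.051 (Cox8a) and -0.032 ± 0.048 (Cox6a1, the lowest of the complex). Cox6c and Cox7b, small subunits within the membrane, had 0.013 ± 0.060 and 0.051 ± 0.084.

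ATP synthase had 7 of 11 means above 0 at both doses. The 3 genes Atp5mc1, Atp5mc2 and Atp5mc3, which encode the same mature subunit c of the membrane rotor, had high-dose means of 0.16 ± 0.055, 0.069 ± 0.063 and 0.11 ± 0.049. Their low-dose means were 0.16, 0.16 and 0.14. Atp5mc1 came closest to the threshold of the genes that missed it at the high dose (limma adjusted p 0.0549), and it passed when only genes with a value in all samples were tested. Because the 3 genes have similar coding sequences, probes could pick up each other's transcripts, and that was not tested. The catalytic head's alpha and beta subunits, Atp5f1a and Atp5f1b, had high-dose means of 0.039 ± 0.060 and 0.067 ± 0.055. The delta and gamma subunits of the central stalk, Atp5f1d and Atp5f1c, had -0.0022 ± 0.052 and -0.072 ± 0.055. Atp5f1c had the lowest low-dose mean of the 37 genes. Its low-dose values were -0.06, -0.20, -0.01, -0.30, -0.12, 0.00, -0.29, -0.12 and -0.10, below 0 in 8 of 9 samples, with a mean of -0.13 ± 0.051 and a limma adjusted p of 0.162. The genes of the peripheral stalk and membrane part, Atp5pb, Atp5pf, Atp5po and Atp5mk, lay between -0.060 and 0.068 at the high dose.

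**Figure D2:**
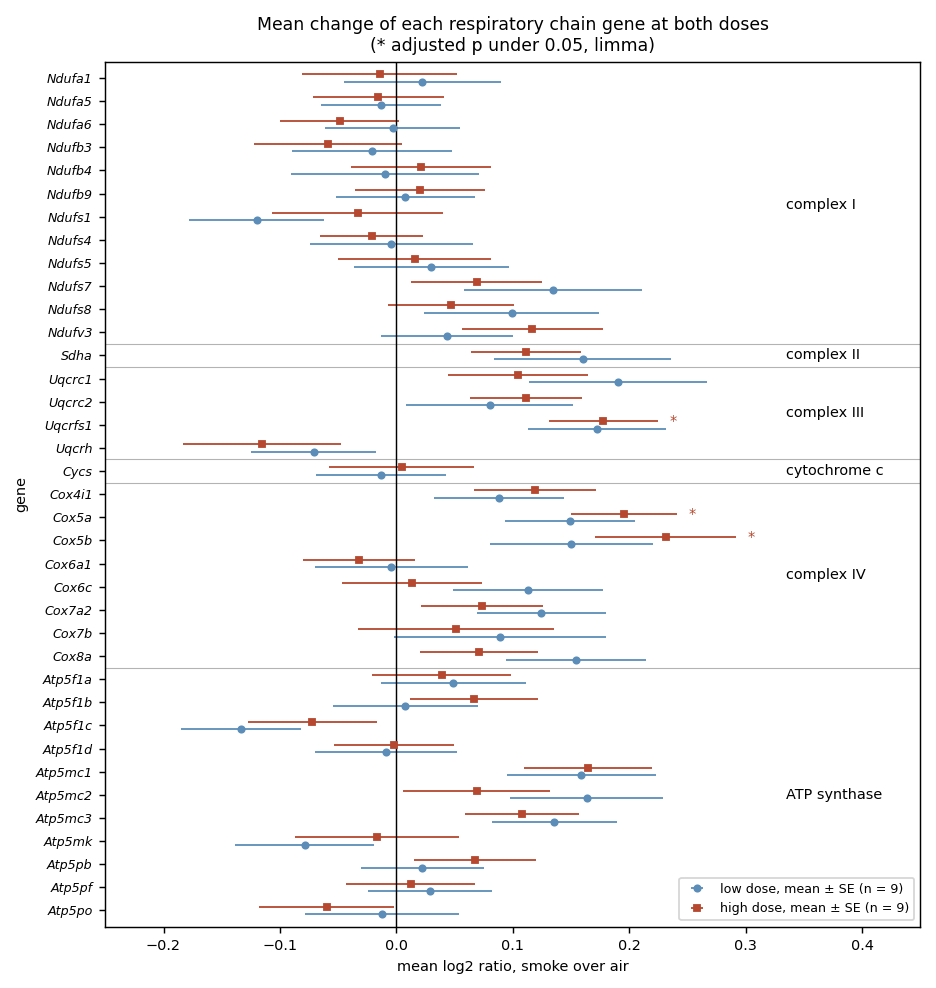
Mean log2 ratio of smoke over air ± SE over 9 samples (horizontal axis) of each gene, ordered by complex (vertical axis), with circles for the low dose and squares for the high dose. Stars mark Uqcrfs1, Cox5a and Cox5b, which passed the test at the high dose; complex I lies around 0 and 7 of 8 complex IV genes lie above it at both doses.

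The complexes were not spread evenly over the deposited table, which consists of an upper and a lower block of rows with different probes. Complex I had 9 of its 12 genes in the lower block, while complex IV had 7 of 8 and complex III all 4 in the upper. At the high dose the genes in the upper block had a median of 0.070 (18 of 24 above 0) and those in the lower block 0.0044 (7 of 13 above 0). The 3 complex I genes in the upper block had a median of 0.047 and the 9 in the lower -0.016. The medians of all tested genes were 0.0019 and 0.0044 in the blocks, and the part of the blocks in the difference between complexes was not tested.

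The doses did not separate these genes. In the 9 pairs that share a control pool, 0 of 37 genes passed the test of high minus low, against 0.174% of all genes, and 0 of 37 had an unadjusted p under 0.05, against 9.91% of all genes. The largest differences were those of Cox6c, -0.10 ± 0.069 (SE, n = 9 pairs), Atp5mc2, -0.094 ± 0.066, Ndufs1, 0.087 ± 0.074, and Uqcrc1, -0.086 ± 0.078, and that of Cox5b was 0.081 ± 0.070. The 95% intervals of the 37 differences reached from -0.25 (the lower bound of Uqcrc1) to 0.243 (the upper bound of Ndufs1), so larger mean differences between the doses lie outside the intervals of these genes. High-dose means were the higher of the pair in 16 of 37 genes. The median difference was -0.014, against 0.0067 for all genes.

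The hours since the last exposure showed the clearest shared pattern, although no single gene passed the test. At 20 hours the mean of both doses lay above air in 33 of 37 genes (89.2%), at 2 hours in 21 (56.8%) and at 6 hours in 17 (45.9%), while the shares of all genes were 49.7%, 51.1% and 50.4%. The median log2 ratio of the 37 genes was 0.038 at 2 hours, -0.0083 at 6 hours and 0.13 at 20 hours. The highest of the 3 times was 20 hours in 31 of 37 genes (83.8%, against 30.6% of all genes), and 34 of 37 were higher at 20 than at 6 hours (91.9%, against 47.7%). In limma's F test over the 3 times, 0 of 37 genes passed, against 1.6% of all genes, and 6 of 37 had an unadjusted p under 0.05 (16.2%, against 16.5% of all genes).

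All 4 complexes with more than 1 gene had their highest median at 20 hours. All 8 complex IV genes and all 11 ATP synthase genes were highest at 20 hours, as were 9 of 12 in complex I and 3 of 4 in complex III. In complex IV, 5 of 8 genes were higher at 20 than at 2 hours without the combination of 7 weeks and 2 hours. Its count higher at 20 than at 6 hours was 5 without 2 weeks and 6 hours, and 5 without 13 weeks and 20 hours. In ATP synthase both counts stayed at 10 or 11 of 11 when 1 combination was left out. From 2 to 6 to 20 hours the medians ran -0.045, -0.069 and 0.099 in complex I, 0.10, 0.046 and 0.15 in complex III, 0.11, 0.030 and 0.17 in complex IV, and 0.018, -0.058 and 0.13 in ATP synthase. Without the combination of 7 weeks and 2 hours the complex III median was 0.195 at 2 hours, above the 0.15 at 20 hours, and 2 of its 4 genes were higher at 20 than at 2 hours. That 6 hours was the lowest time did not hold in every setting. In the low-dose samples alone the medians at 2 and 6 hours were -0.063 and -0.050 in complex I and 0.062 and 0.073 in complex IV. With both doses, the 6-hour median was also above the 2-hour median in complex I without the combination of 2 weeks and 6 hours (-0.026 against -0.045) and in complex III without that of 13 weeks and 2 hours (0.046 against -0.0075). The exceptions to 20 hours as the highest time were Sdha, Uqcrc1, Ndufv3 and Ndufs5, highest at 2 hours, and Cycs and Ndufs1, highest at 6 hours.

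**Figure D3:**
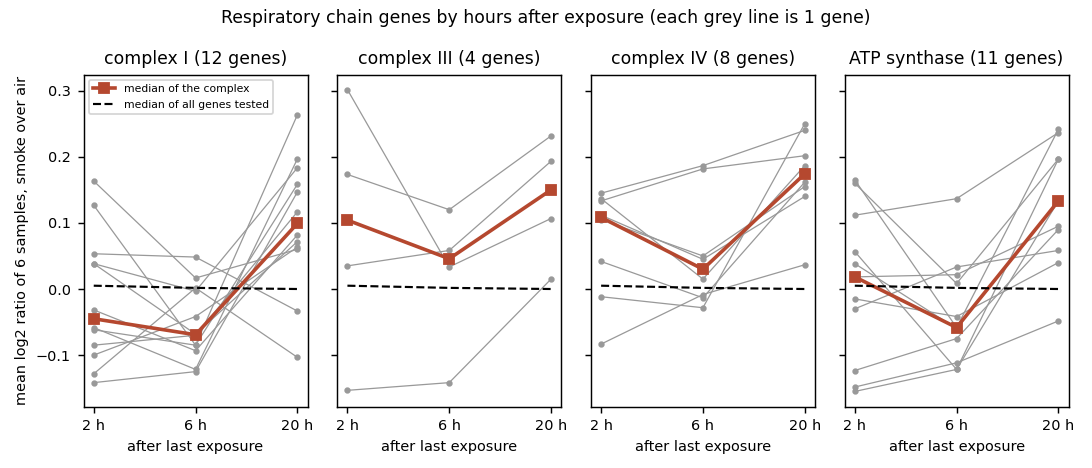
Mean log2 ratio of smoke over air of 6 samples, both doses together (vertical axis), at 2, 6 and 20 hours from the end of exposure (horizontal axis) for the genes of 4 complexes; grey lines are genes, the red line is the complex's median and the dashed line the median of all genes tested. The red lines are lowest at 6 hours and highest at 20 hours in all 4 complexes, at 0.099 to 0.17.

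Ndufs7 had the largest rise in its mean from 6 to 20 hours. Its values at 6 hours after 2, 7 and 13 weeks were -0.15, 0.00 and 0.04 at the low dose and -0.06, -0.22 and -0.12 at the high dose. At 20 hours they were 0.30, 0.67 and 0.07 at the low dose and 0.24, 0.16 and 0.14 at the high dose. The 2 times did not overlap, but at 2 hours the values ran from -0.15 to 0.24 and overlapped both. The difference between 20 and 6 hours was 0.35 ± 0.11 (SE, 3 means against 3), with a limma adjusted p of 0.203 for the difference and 0.254 for the F test.

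Atp5f1a, the catalytic head's alpha subunit, behaved alike. Its values at 6 hours were -0.18, -0.14 and 0.03 at the low dose and -0.10, -0.30 and -0.04 at the high dose, and at 20 hours 0.07, 0.37 and 0.16 at the low dose and 0.28, 0.16 and 0.14 at the high dose. These 2 times did not overlap either, and the difference was 0.32 ± 0.11 with a limma adjusted p of 0.227. Ndufb3 had the smallest p of the F test, with means of -0.14, -0.125 and 0.15 at 2, 6 and 20 hours (limma adjusted p 0.246). Ndufb4, another accessory subunit of the complex I membrane arm, had means of -0.058, -0.12 and 0.20 (limma adjusted p 0.262).

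At 20 hours 0 of 37 genes lay below air in all 6 samples (against 7.51% of all genes). Above air in all 6 were 14 of 37 (37.8%, against 7.91% of all genes). They were Atp5f1a, Atp5mc1, Atp5mc2, Atp5mc3, Cox4i1, Cox5a, Cox5b, Cox6c, Cox8a, Ndufb4, Ndufs7, Ndufs8, Uqcrc2 and Uqcrfs1. At 6 hours Cox5a and Uqcrfs1 lay above air in all 6 samples (5.41%, against 6.77% of all genes). At 2 hours 0 of the 37 did, against 10.5% of all genes. Ndufa6 and Uqcrh lay below air in all 6 samples at 2 hours (5.41%, against 8.94% of all genes).

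In single samples the median of the 37 genes at 20 hours was 0.04, 0.18 and 0.19 at the low dose and 0.08, 0.16 and 0.18 at the high dose, after 2, 7 and 13 weeks. All 6 were above 0, and the sample at the low dose and 2 weeks was the lowest. At 6 hours the medians were -0.09, 0.01 and 0.06 at the low dose and -0.04, -0.06 and 0.00 at the high dose. At 2 hours they were 0.08, -0.15 and 0.12 at the low dose and 0.08, 0.00 and 0.04 at the high dose, so the 2-hour samples overlapped the 20-hour samples. The low-dose sample at 7 weeks and 2 hours stood apart, with 31 of 37 genes below air, while the high-dose sample set against the same control pool had 16 above air.

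The count of genes higher at 20 than at 6 hours was 33 of 37 in the low-dose samples alone and 33 in the high-dose samples alone, and those doses share their control pools. It stayed between 30 and 34 when 1 combination was left out at a time, and it was 34 with each sample centred, with quantile normalization and with each of the table's blocks of rows centred. The count higher at 20 than at 2 hours was 33 with both doses. It fell to 26 without the combination of 7 weeks and 2 hours and to 29 without that of 13 weeks and 20 hours. It was 30 in the low-dose samples alone (81.1%, against 47.7% of all genes) and 27 in the high-dose samples alone (73%, against 48.3%). By complex, the low-dose and high-dose counts were 11 and 8 of 12 in complex I and 3 and 3 of 4 in complex III. They were 6 and 6 of 8 in complex IV and 10 and 9 of 11 in ATP synthase. The median of the 37 genes at 2 hours, 0.038, moved with single combinations, to 0.0125 without 2 weeks, to 0.0725 without 7 weeks and to -0.010 without 13 weeks at that interval. The 6-hour median was 0.0025, -0.0275 and -0.040 without 2, 7 and 13 weeks at its interval, and the 20-hour median stayed between 0.105 and 0.178. Each hour has 3 control pools, and a difference in the control lungs between times of collection cannot be told apart from a difference in the exposed lungs.

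**Figure D4:**
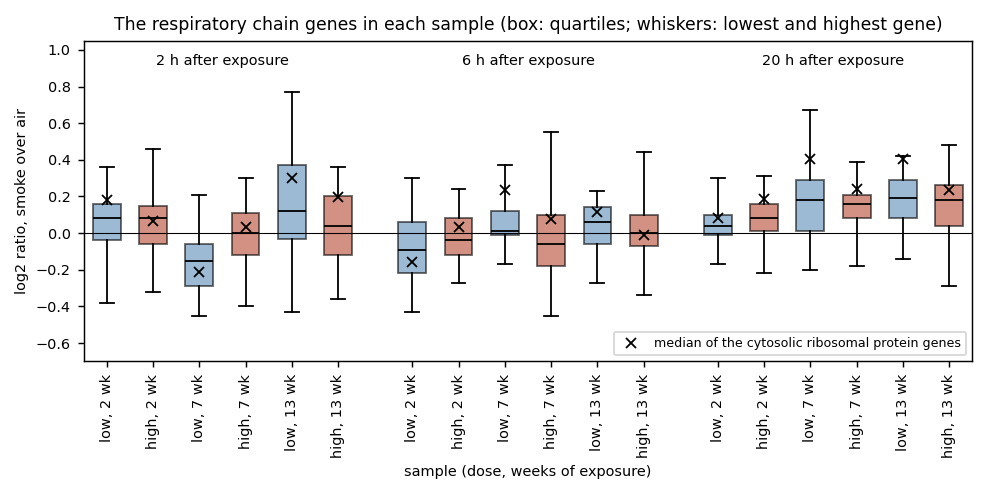
Distribution of the log2 ratios of the 37 genes (vertical axis; box, quartiles with the median; whiskers, lowest and highest gene) in each of the 18 samples, grouped by hours after exposure (horizontal axis); blue is the low dose, red the high dose, and crosses are the medians of the 32 cytosolic ribosomal protein genes. All 6 medians at 20 hours lie above 0, and the crosses at 20 hours lie between 0.085 and 0.405.

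Genes of the cytosolic ribosome, another group of widely expressed genes, moved alongside. Their median over 32 genes was 0.11, 0.049 and 0.26 at 2, 6 and 20 hours. In single samples it ran from -0.21 to 0.30 at 2 hours, from -0.155 to 0.235 at 6 hours and from 0.085 to 0.405 at 20 hours, and the lowest value was again the low dose at 7 weeks and 2 hours. At the high dose 10 of the 32 rose and 0 fell, against 9.56% and 7.64% of all genes. At the low dose 5 of the 32 rose, against 141 of all 4016 genes. What the groups share, such as signal strength on the arrays, was not tested, because intensities were not used here.

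The weeks of exposure were less ordered. The median of the 37 genes was 0.037 after 2 weeks, 0.022 after 7 weeks and 0.097 after 13 weeks, with 24, 22 and 30 of 37 genes above air (all genes, 49.5% to 51.7%). The highest of the 3 was 13 weeks in 25 of 37 genes (67.6%, against 32.1% of all genes). These included 7 of 8 in complex IV, 9 of 12 in complex I and 3 of 4 in complex III, but 5 of 11 in ATP synthase. The ATP synthase medians after 2, 7 and 13 weeks were 0.045, 0.027 and 0.040. In limma's F test 0 of 37 passed, against 0.125% of all genes, and 0 had an unadjusted p under 0.05, against 6.13% of all genes. Ndufb4 had the smallest p, with means of -0.16, 0.077 and 0.10 after 2, 7 and 13 weeks and a limma adjusted p of 0.817. Cox5b had low-dose values of 0.43, 0.16 and 0.30 and high-dose values of 0.36, 0.03 and 0.45 after 13 weeks, against 0.07, -0.07 and 0.10 and 0.08, 0.08 and 0.14 after 2 weeks, so the 2 exposure lengths overlapped.

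**Figure D5:**
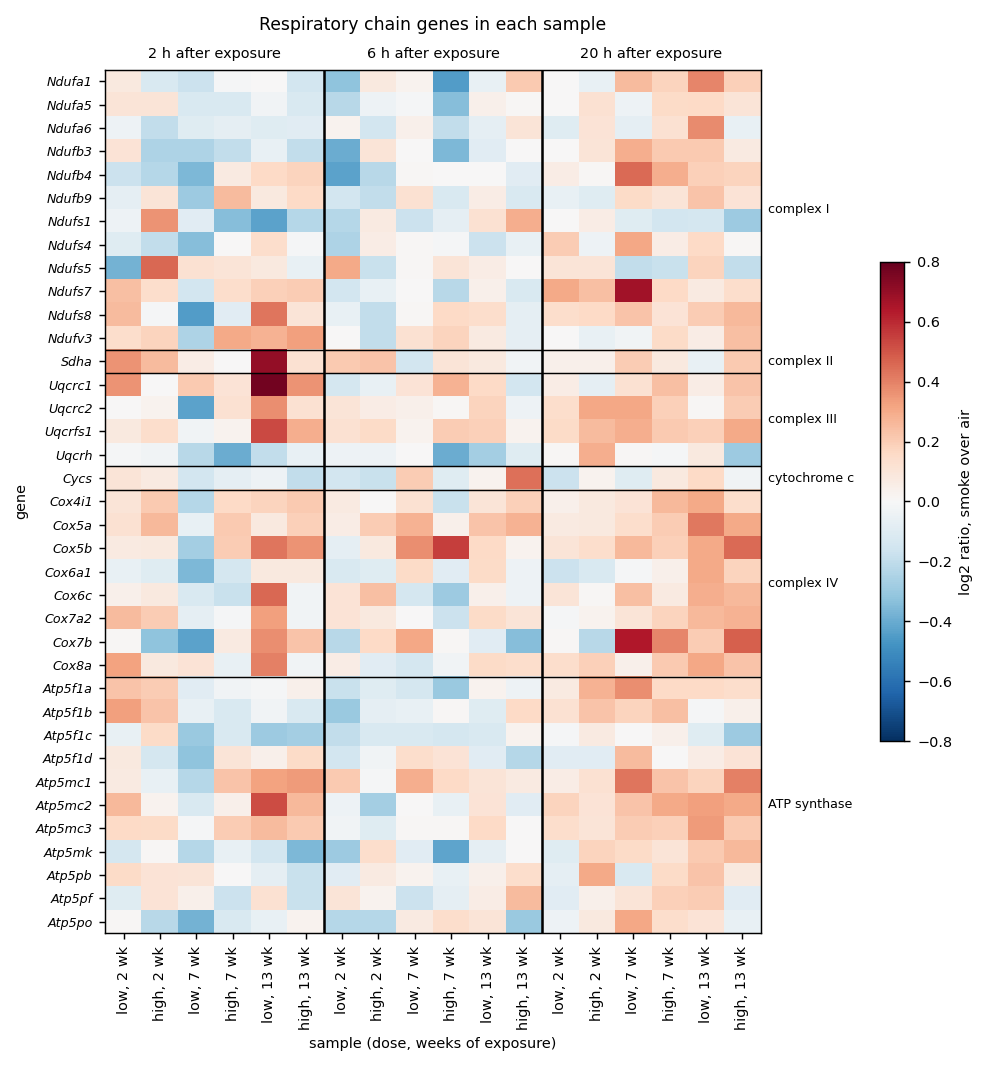
Log2 ratio of smoke over air (colour, blue below 0 and red above 0) of the 37 genes (rows, by complex) in the 18 samples (columns, by hours after exposure, then weeks and dose). The 6 columns at 20 hours are mostly red, with 33 of 37 genes above air on average, and the low-dose column of 7 weeks and 2 hours is mostly blue, with 31 of 37 genes below air.

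The other mitochondrial lists can be set against the 9.56% of all genes that rose and the 7.64% that fell at the high dose. Of 10 genes of the TCA cycle and of pyruvate entry, 3 rose at the high dose and 0 fell, while 0 passed at the low dose. The 3 were Pdhx and Pdhb, parts of the pyruvate dehydrogenase complex, at 0.33 ± 0.065 and 0.17 ± 0.056 (SE, n = 9), and Mpc1. Mpc1, a subunit of the mitochondrial pyruvate carrier, was at 0.16 ± 0.0465. All 3 belong to the entry of pyruvate, as do Dlat, Pc and Mpc2, while Cs, Idh3g, Suclg1 and Mdh2 belong to the cycle itself. Of 10 genes of assembly, import and biogenesis 0 passed, and of 10 carriers and pores 1 rose, the outer membrane channel Vdac1 at 0.23 ± 0.073. Of 15 genes of fatty acid oxidation 1 rose, the enoyl-CoA hydratase Echs1 at 0.18 ± 0.0565, and of 8 mitochondrial ribosomal protein genes 1 fell, Mrpl14, at -0.22 ± 0.070. The medians of these lists were 0.049, 0.0078, -0.0022, 0 and -0.014, against 0.0033 for all genes.

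Among 4 genes of mitochondrial peroxide and superoxide defence, Sod2, the superoxide dismutase of the mitochondrial matrix, rose by 1.17 ± 0.13 on the log2 scale at the high dose and by 0.64 ± 0.12 at the low dose. It was the 1 gene of the mitochondrial lists that also passed the test between the doses. Prdx3, Txn2 and Nnt of the same list passed at neither dose, with high-dose means of -0.092, 0.10 and -0.092. The high-dose median of the list was 0.0039. Of 16 glycolysis genes 5 rose and 1 fell at the high dose, with a list median of 0.10. The largest rises were those of Aldoa (0.38 ± 0.078), Eno1 (0.36 ± 0.055) and Gapdh (0.31 ± 0.056), enzymes of the cytosolic breakdown of glucose. The hexokinases went opposite ways: the fall was that of Hk1 (-0.19 ± 0.051), while Hk2 was among the 5 that rose (0.19 ± 0.0495). Over 2, 6 and 20 hours the glycolysis median ran 0.17, 0.076 and 0.028, so its highest time was 2 hours. The medians at those times were 0.077, 0.031 and 0.091 for TCA cycle and pyruvate entry and 0.041, -0.0058 and 0.11 for mitochondrial ribosomal proteins. They were -0.072, -0.031 and 0.0075 for carriers and pores, and -0.047, 0.034 and 0.072 for the defence genes. Fatty acid oxidation ran 0.083, -0.050 and 0.057, and assembly, import and biogenesis -0.038, 0.045 and -0.019.

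Of 11 macrophage marker genes 8 rose and 2 fell at the high dose (list median 0.61), and all 7 lymphocyte markers fell (list median -0.52). Of all genes, 9.56% rose and 7.64% fell at this dose. Heart and striated muscle, tissues rich in mitochondria, had 10 marker genes, of which 0 passed at either dose, with high-dose means from -0.047 to 0.37. The per-sample median of the muscle list ran from -0.235 to 0.45 at 2 hours, from -0.235 to 0.145 at 6 hours and from -0.12 to 0.565 at 20 hours. Of 3 measured brown fat markers 0 passed. The part of these cell types in the respiratory chain values was not tested.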

How the data were processed

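The authors deposited 1 table of log2 ratios with 11994 rows for 18 samples. Per the labels, Cy5 marks the RNA of exposed lungs and Cy3 that of control lungs, and every labelled pool was hybridised to 2 PIQOR arrays. How background and weak spots were treated, and how ratios were normalized, is not given in the sources used here. All of the 257 values under -1 are the log2 of a ratio with 2 decimals, and sample medians lie between -0.01 and 0.01. Repeat spots, equal in 99.999% of 90792 compared values, were merged to 5956 distinct probes, 4794 of them named. A sample has values in 78.8% to 94.7% of the rows and for 3919 to 4583 named genes.

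Probes of a gene were averaged. Tested were genes measured at both doses in no fewer than 6 of 9 combinations of weeks and hours, 4016 in all (3994 over hours and weeks), with limma 3.58.1 in R 4.3.3 (lmFit and eBayes, two-sided). The mean of 9 log2 ratios was tested against 0 at each dose. Doses were compared by 9 differences within pairs that share a control pool, per the source names in the labels. Hours and weeks were compared by F tests on the 9 pair means, with the other time as covariate. P-values were adjusted by Benjamini-Hochberg over all genes, with a threshold of 0.05. Nothing says whether pools of different combinations differ beyond the stated times. The steps were tested on simulated data.

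The genes, the lists, the motifs and the naming rule were chosen with earlier results of these data known. The rule names genes past the threshold, the highest and lowest gene of each complex at the high dose, measured tissue isoforms, and up to 4 called genes of the other mitochondrial lists. Other named genes were chosen after their values were seen. Alternatives covered left-out combinations and times, scaling, missing values, probes, an exact sign-flip test and the control pool as a random block (statmod 1.5.0). Figures were drawn with matplotlib 3.10.9 in Python 3.11.15.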

Additional observations from a re-analysis of the deposited data

Results flagged for a closer look

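In 6 of 74 sets of 9 samples (37 genes at 2 doses) 1 sample lay far from the others. A rate of about 1 in 20 holds for independent sets of replicates. Here the 9 samples were different combinations, and the genes shared samples and control pools, so that rate gives no test. The rate over all genes was not computed. Of the 6, 2 belonged to the low-dose sample of 7 weeks and 2 hours. In it Uqcrc2 had a log2 ratio of -0.43 (next lowest 0.00) and Cox4i1 one of -0.23 (next lowest 0.04). A further 2 belonged to the high-dose sample of 2 weeks and 2 hours, where Ndufs5 had 0.46 (next highest 0.10) and Ndufs4 -0.20 (next lowest -0.06). Cycs reached 0.44 at the high dose, 13 weeks and 6 hours (next highest 0.08). Ndufa6 reached 0.38 at the low dose, 13 weeks and 20 hours (next highest 0.04).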

How the results depend on the processing

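The count of respiratory chain genes past the threshold at the high dose, 3, ran from 2 to 4 over the fits without 1 combination, and was 3 or 4 under both scalings, both filters on missing values, single probes, the exact sign-flip test (adjusted p 0.0487 for each) and the control pool as a random replicate block. Of the fits with 6 samples, the count was 0 without the samples of 7 weeks, of 13 weeks, of 2 hours or of 20 hours. In those fits 4.93% to 9.91% of all genes passed. The count was 3 without the samples of 2 weeks (13.6% of all genes) and 4 without those of 6 hours (13.7%). The cause was not tested. At the low dose the count was 0 except for 1 (Uqcrfs1) with all samples in 1 fit and the pool as a replicate block. The share of all genes that passed in that fit is not reported here. In every low-dose fit without 1 combination the count was 0, against 3.06% to 4.81% of all genes. The counts for high minus low dose, hours and weeks were 0 in every alternative run. The combination number stands for the control pool of both doses, so the dose comparison is paired by it, and the correlation within pools was 0.255. Centring the upper and the lower rows of the table separately, chosen after seeing the data, left the count at the high dose at 3. Signal over background is not known here, so weak spots could not be told from strong ones.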
